A study of Homo sapiens with 15 samples.

Results

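The MAP kinases, their upstream kinases and the phosphatases and Sprouty proteins that restrain them were followed as 1 group of genes through 15 arrays of Caco-2 cells. Members were all array rows whose platform gene symbol began with MAPK, MAP2K, MAP3K, MAP4K, DUSP, SPRY, SPRED or RPS6KA, with 1 DUSP gene left out, and each symbol was represented by its brightest row. This gave 81 genes from 90 rows, out of 14884 symbols in the table. By function they were 39 kinases, 12 feedback inhibitors (MAP kinase phosphatases and Sprouty proteins) and 30 other genes that share a name, such as atypical dual specificity phosphatases, scaffold proteins and noncoding transcripts. Of the 81, 73 lay above the filter on low values and were tested, made up of 36 kinases, 10 feedback inhibitors and 27 others. The rule found no SPRED gene and, for RPS6KA, 1 intronic transcript (RPS6KA2-IT1), and MAPK8, MAPK14, RPS6KA1, SPRED1 and SPRED2, which were set down for description whatever their values, have no row named here.

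Caco-2 is a line from a human colon carcinoma whose cells, held at confluence, come to resemble absorptive cells of the small intestine. The arrays fell into 3 groups of 5. Control cells were untreated, LPS cells received lipopolysaccharide, the endotoxin of Gram-negative bacteria, at 1 µg/mL for 48 h, and LPS+RSV cells received trans-resveratrol, a polyphenol of grapes, at 50 µM for 1 h before the same LPS exposure. Experiments fell on days 15 to 19 of culture, and each Affymetrix whole-transcript array was prepared from 300 ng of RNA. Whether replicates were separate cultures is not stated, so a p-value here reflects only the spread among the samples at hand, and that spread may be technical. Nor is it stated whether control and LPS cells were given resveratrol's solvent, ethanol.

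In a MAP kinase cascade a MAP3K phosphorylates a MAP2K, which phosphorylates a MAP kinase of the ERK, JNK or p38 type. Growth factors work mainly through ERK. LPS acting on its receptor works in part through TAK1 (MAP3K7) on JNK and p38, and cell stress also uses other MAP3Ks, such as MAP3K5. The cascades are held back by MAP kinase phosphatases, dual specificity enzymes that remove both activating phosphates, and by Sprouty proteins, which act between growth factor receptors and RAF, and several of these inhibitors are themselves transcribed in response to ERK signalling. The arrays measured RNA levels, and kinase activity is set largely by phosphorylation, which was not measured here.

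Because the inhibitors are known as transcriptional targets of the pathway, the 250 bases before the transcription start were searched for motifs of pathway factors. RefSeq promoters (GRCh38.p14) of 10 of the 12 feedback inhibitors were read, with 18 starts between them. DUSP4 and DUSP5 were not searched. The motifs, on both strands, were the cyclic AMP response element TGACGTCA (CRE), the AP-1 site TGANTCA, the ETS core CCGGAA and the CArG box of serum response factor. A CRE lay before DUSP1 and DUSP8, an AP-1 site before 1 start of SPRY3 (a Y entry) and an ETS core before 1 start of SPRY2, and no CArG box was found. Among all 35116 promoters of the table, read over the same length, 1.65% held the CRE, 6.57% the AP-1 site, 14.5% the ETS core and 1.16% the CArG box. Promoters of 3 genes are shown, with motif letters in capitals. DUSP1 is at chr5:172771196-172771445, DUSP16 at chr12:12562864-12563113 and SPRY4 at chr5:142324248-142324497, all on the minus strand. DUSP1 is shown for its CRE, which begins 125 bases before the start, and DUSP16 and SPRY4 because they were the inhibitors with an unadjusted p under 0.05 between LPS+RSV and LPS cells.
DUSP1: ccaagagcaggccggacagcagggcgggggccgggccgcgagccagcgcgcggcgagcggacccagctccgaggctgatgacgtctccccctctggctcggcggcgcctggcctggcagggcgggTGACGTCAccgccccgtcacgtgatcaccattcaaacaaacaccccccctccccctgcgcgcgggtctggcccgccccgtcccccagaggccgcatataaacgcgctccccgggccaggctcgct
DUSP16: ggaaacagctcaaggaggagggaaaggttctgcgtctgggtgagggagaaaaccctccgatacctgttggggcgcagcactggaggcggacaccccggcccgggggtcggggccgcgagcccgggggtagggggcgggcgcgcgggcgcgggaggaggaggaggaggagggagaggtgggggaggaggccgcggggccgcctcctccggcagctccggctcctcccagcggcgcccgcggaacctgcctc
SPRY4: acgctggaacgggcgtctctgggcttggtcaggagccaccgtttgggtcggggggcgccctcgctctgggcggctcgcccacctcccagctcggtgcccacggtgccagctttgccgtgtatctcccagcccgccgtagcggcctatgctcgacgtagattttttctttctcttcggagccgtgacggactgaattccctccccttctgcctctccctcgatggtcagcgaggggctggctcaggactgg
DUSP16 and SPRY4 held none of these letters in this window.

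Over all genes tested, arrays correlated with each other at 0.922 to 0.994. One array was set apart, LPS+RSV replicate 1, whose correlation with the rest averaged 0.946 against 0.973 to 0.984 for the other 14 arrays, so results that rest on it are given with and without it. LPS replicates 1 and 2 were the highest LPS arrays for several inhibitors, and those results are given without both arrays as well, a choice made after the data were seen. All 12 of the 17 enterocyte markers that had a row passed the filter. VIL1 (10.67 to 11.33 on the log2 scale) and SI (11.41 to 12.59) were high, and LCT (5.03 to 5.51) was near it. They did not all move together: from control to LPS the mean of KRT20 went from 5.63 to 6.80 and that of SI from 12.23 to 11.80. The mean deviation of these 12 from their overall means ranged from -0.29 to 0.20 in control, -0.34 to 0.29 in LPS and -0.40 to 0.37 in LPS+RSV arrays. The 5 of 12 fibroblast, endothelial and immune markers that had a row (VIM, PECAM1, VWF, CD68 and LYZ) passed the filter too. The mean deviation of these 5 from their overall means ranged from -0.16 to 0.07 in control arrays, -0.04 to 0.12 in LPS arrays and -0.14 to 0.12 in LPS+RSV arrays. Group means of the proliferation markers were not level, though the arrays of the groups overlapped. All 22 tested were higher in LPS than in control cells (median log2 difference 0.54), and all 22 were lower once resveratrol had been given (median -0.65, LPS+RSV against LPS). In either comparison 0 of 22 were called by limma, with 8 and 14 at an unadjusted p under 0.05. Of all genes, 4.62% were higher in LPS than in control cells and 10.5% lower in LPS+RSV than in LPS cells at that level. Both comparisons use the same LPS arrays. In LPS+RSV against control 20 of the 22 markers were lower (median -0.13), with 0 called and 0 at an unadjusted p under 0.05 (limma). The mean deviation of the 22 markers ranged from -0.98 to 0.44 in control, -0.01 to 0.97 in LPS and -0.88 to 0.44 in LPS+RSV arrays. The part of proliferation in the results below was not tested.

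No member passed the test in any of the 3 comparisons. In the limma fit, 0 of 73 members had an adjusted p under 0.05 for LPS against control, for LPS+RSV against LPS or for LPS+RSV against control, where the share of all 11804 genes called was 0.0254%, 0.0424% and 0%. The lowest adjusted p of any member was 0.351, 0.135 and 0.464 in the same order. The fit was precise enough to bound most changes: the median half-width of the 95% interval was 0.20 on the log2 scale, and the whole interval lay within ±0.5 for 65, 61 and 65 of the 73 members. What follows describes levels and differences that did not pass this threshold, and unadjusted p-values are given as descriptions.

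The first comparison asks what LPS did to these genes. Kinases as a group hardly differed, while most feedback inhibitors were somewhat higher in LPS cells. Of the 10 tested inhibitors, 8 were higher and 2 lower, with a median log2 difference of 0.15. Of the 36 tested kinases, 21 were higher and 15 lower, with a median of 0.02, beside a median of 0.01 over all genes tested. Unadjusted p-values under 0.05 were found for 5 of 73 members on the higher side (DUSP16, DUSP2, MAP4K4, SPRY2 and SPRYD7), 6.85% of members against 4.62% of all genes. On the lower side there were 4 of 73 (DUSP19, DUSP22, DUSP26 and MAP2K5), 5.48% against 3.26%. The arrays of the LPS and control groups did not overlap for 3 members (DUSP19, DUSP22 and SPRYD7), 4.11% against 2.21% of all genes. Without LPS replicates 1 and 2 there were 2 members higher and 2 lower at an unadjusted p under 0.05, 2.74% on each side against 3.31% and 2.46% of all genes, and leaving out control replicate 3 or LPS replicate 2 alone left 5 members in both directions together, 6.85% against 6.42% and 5.78% of all genes (12.3% against 7.88% with every array).

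Sprouty proteins are recruited to activated receptors and block the route to RAS and RAF, and all 3 tested members were higher in LPS cells, with a median difference of 0.22. SPRY2, given for replicates 1 to 5 in turn as for every gene below, read 6.76, 6.87, 7.07, 7.11 and 7.21 in the control arrays, 7.69, 7.59, 7.18, 6.97 and 7.19 in the LPS arrays and 7.14, 6.86, 7.01, 7.16 and 7.45 in the LPS+RSV arrays on the log2 scale. LPS replicates 1 and 2 were the highest of the 15 arrays, and the other 3 LPS arrays lay among the controls. The difference was 0.32 ± 0.14 (SE; limma, unadjusted p = 0.0367, adjusted p = 0.591), and 0.11 without those 2 arrays. SPRY4 read 5.74, 5.72, 5.31, 5.85 and 5.59 in the control arrays, 5.94, 5.90, 5.70, 5.98 and 5.79 in the LPS arrays and 5.70, 5.54, 5.27, 5.67 and 5.72 in the LPS+RSV arrays. In LPS cells 4 of 5 arrays exceeded every control array but replicate 4, and LPS replicate 3 lay within the control range. Its difference from control was 0.22 ± 0.11 (SE; limma, unadjusted p = 0.0540, adjusted p = 0.640). It was 0.18 without LPS replicates 1 and 2 and 0.14 without control replicate 3. SPRY3 had group means of 5.61 ± 0.13 (SD, n = 5) in control, 5.64 ± 0.06 in LPS and 5.53 ± 0.12 in LPS+RSV arrays.

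Among the phosphatases that act in the nucleus, DUSP5, which is specific for ERK, had the highest difference of the group. It read 5.61, 5.72, 5.76, 5.82 and 5.82 in the control arrays, 6.39, 6.71, 5.82, 5.69 and 5.88 in the LPS arrays and 6.32, 5.57, 5.53, 5.82 and 5.87 in the LPS+RSV arrays. LPS replicates 1 and 2 and LPS+RSV replicate 1 stood well above all other arrays, which lay between 5.53 and 5.88. The LPS difference was 0.35 ± 0.18 (SE; limma, unadjusted p = 0.0698, adjusted p = 0.679). It was 0.19 without LPS replicate 2, 0.05 without LPS replicates 1 and 2, and 0.07 with the mean of both DUSP5 rows. The second row averaged 4.82, below the filter level of 5.03 to 5.09, and gave -0.22 for LPS against control and 0.26 for LPS+RSV against LPS. DUSP2, a nuclear phosphatase first known from activated lymphocytes, read 6.94, 6.98, 6.91, 7.06 and 6.998 in the control arrays, 7.06, 7.14, 7.12, 7.25 and 7.05 in the LPS arrays and 7.22, 7.16, 7.005, 7.24 and 7.06 in the LPS+RSV arrays. Its LPS arrays overlapped the controls at the edge only, and the difference was 0.14 ± 0.06 (SE; limma, unadjusted p = 0.0389, adjusted p = 0.601), or 0.16 without LPS replicates 1 and 2. DUSP1, the archetype of the family and an early response gene, read 7.71, 7.499, 7.84, 8.09 and 8.39 in the control arrays, 8.26, 8.07, 8.12, 7.70 and 7.66 in the LPS arrays and 8.51, 7.52, 7.71, 8.18 and 8.37 in the LPS+RSV arrays. The 3 groups overlapped widely, and the difference was 0.06 ± 0.20 (SE; limma, unadjusted p = 0.774, adjusted p = 0.974), which became -0.08 without LPS replicates 1 and 2.

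DUSP16 acts on JNK and p38. It read 8.86, 8.86, 8.79, 8.87 and 8.75 in the control arrays, 9.36, 9.14, 8.94, 8.79 and 8.88 in the LPS arrays and 8.81, 8.79, 8.81, 8.64 and 8.78 in the LPS+RSV arrays. LPS replicates 1, 2, 3 and 5 were above every control array, replicate 4 was not, and the LPS+RSV arrays all lay between 8.64 and 8.81. The difference from control was 0.19 ± 0.09 (SE; limma, unadjusted p = 0.0479, adjusted p = 0.631). It was 0.11 without LPS replicate 1 and 0.04 without LPS replicates 1 and 2. DUSP8, which has the same substrates, varied widely between arrays of a group, from 5.67 to 6.75 in control, 6.13 to 6.89 in LPS and 5.98 to 6.997 in LPS+RSV cells. The ERK phosphatases of the cytoplasm, DUSP7 and DUSP9, had LPS means of 6.27 ± 0.13 and 7.93 ± 0.12 (SD, n = 5) against control means of 6.29 ± 0.14 and 7.98 ± 0.08. DUSP4 and DUSP10 lay below the filter, DUSP4 at 4.33 to 4.68 in control and 4.56 to 4.86 in LPS arrays.

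**Figure D1:**
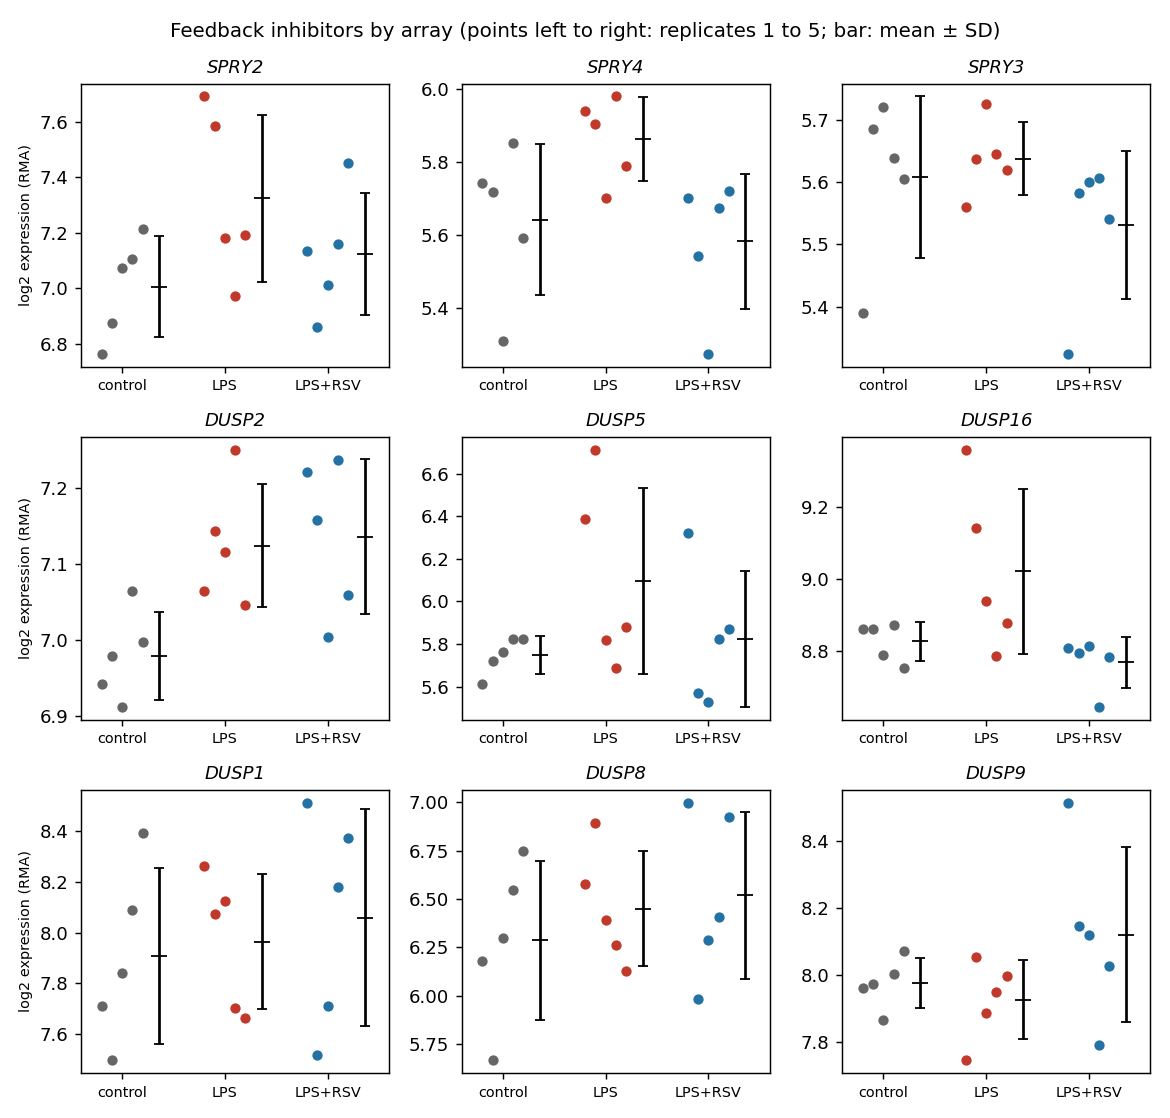
Log2 expression (vertical axes, RMA) of feedback inhibitors in each array, with control, LPS and LPS+RSV arrays side by side, points for replicates 1 to 5 from left to right, and the mean ± SD beside them. LPS replicates 1 and 2 are the highest LPS arrays for SPRY2, DUSP5 and DUSP16, and LPS+RSV replicate 1 is high for DUSP1, DUSP5 and DUSP8.

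Among the kinases the difference of largest size in LPS cells was in MAP4K4, a Ste20-type kinase that feeds into JNK signalling and acts on the cytoskeleton. It read 7.68, 7.70, 7.30, 7.33 and 6.92 in the control arrays, 7.73, 7.93, 7.38, 7.81 and 7.91 in the LPS arrays and 7.09, 7.67, 7.43, 7.06 and 7.11 in the LPS+RSV arrays. All LPS arrays but replicate 3 exceeded every control, and replicate 3 lay within the control range. The difference was 0.37 ± 0.16 (SE; limma, unadjusted p = 0.0327, adjusted p = 0.587). Its relative MAP4K5 differed by 0.13 ± 0.18 (SE), and by 0.08 without control replicate 5.

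Lower means in LPS cells were found for 15 of the 36 kinases. MAP2K5, the activator of ERK5, read 7.19, 7.13, 6.88, 6.78 and 6.78 in the control arrays, 6.81, 6.61, 6.65, 6.73 and 6.86 in the LPS arrays and 6.84, 7.17, 6.83, 6.89 and 6.74 in the LPS+RSV arrays. Control replicates 1, 2 and 3 were above all LPS arrays, and control replicates 4 and 5 lay within the LPS range. Its difference was -0.22 ± 0.10 (SE; limma, unadjusted p = 0.0384, adjusted p = 0.595). MAP2K6, an activator of p38, read 8.23, 8.40, 8.03, 7.84 and 7.54 in the control arrays, 7.71, 7.65, 7.64, 7.74 and 7.81 in the LPS arrays and 7.33, 8.11, 7.93, 7.68 and 7.55 in the LPS+RSV arrays. The LPS arrays kept within 7.64 to 7.81 while the controls spread from 7.54 to 8.40, and the difference was -0.30 ± 0.15 (SE; limma, unadjusted p = 0.0703, adjusted p = 0.682). MAP3K5 (ASK1), which responds to oxidative stress, averaged 8.42 ± 0.31 (SD, n = 5) in control and 8.15 ± 0.14 in LPS arrays, with overlapping groups and a difference of -0.28 ± 0.15 (SE; limma, unadjusted p = 0.0817, adjusted p = 0.695), which was -0.18 without control replicate 5.

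The central kinases of the cascades stayed close to control in LPS cells. MAPK3 (ERK1) differed by -0.04 ± 0.10 (SE) and MAPK7 (ERK5) by 0.02 ± 0.06. MAPK9 (JNK2) differed by -0.02 ± 0.10, and the p38 kinase MAPK13 by 0.06 ± 0.13. The MEK kinases MAP2K1 and MAP2K2, which activate ERK, differed by 0.08 ± 0.07 and 0.06 ± 0.11, and MAP3K7 (TAK1) by 0.02 ± 0.11. MAPKAPK2, the p38 target that stabilises cytokine messages, differed by -0.03 ± 0.07. For each of these 8 kinases the 95% interval included 0 and lay within ±0.5. The atypical ERK-like kinases MAPK4 and MAPK6 differed by -0.16 ± 0.08 and 0.13 ± 0.08, and the mixed-lineage kinase MAP3K9 by 0.13 ± 0.07. MAPK4 was at -0.10 without LPS replicate 5, MAPK6 at 0.08 without control replicate 1 or LPS replicate 2, and MAP3K9 at 0.09 without control replicate 3. Without LPS replicates 1 and 2 MAPK6 was at 0.04 and MAP3K9 at 0.08.

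Outside both groups were the 3 members whose LPS and control arrays did not overlap. DUSP19, an atypical dual specificity phosphatase linked to JNK signalling, read 7.41, 7.73, 7.46, 7.37 and 7.40 in the control arrays, 7.24, 6.98, 7.03, 7.07 and 7.16 in the LPS arrays and 6.92, 7.53, 7.496, 7.27 and 7.49 in the LPS+RSV arrays. All 5 LPS arrays were below all 5 controls, and in LPS+RSV cells 4 arrays were back above every LPS array while replicate 1 was the lowest of all 15. The LPS difference was -0.38 ± 0.11 (SE; limma, unadjusted p = 0.00336, adjusted p = 0.351), and -0.39 without LPS replicates 1 and 2. DUSP22, also atypical and described here, like DUSP26, after its values were seen, read 7.65, 7.63, 7.70, 7.70 and 7.71 in the control arrays, 7.57, 7.51, 7.52, 7.32 and 7.38 in the LPS arrays and 7.65, 7.53, 7.69, 7.83 and 7.77 in the LPS+RSV arrays. Again each LPS array was below each control array, with a difference of -0.22 ± 0.07 (SE; limma, unadjusted p = 0.00615, adjusted p = 0.359). SPRYD7, which carries the SPRY domain that is unrelated to the Sprouty proteins, read 7.15, 7.22, 6.90, 7.09 and 7.08 in the control arrays, 7.34, 7.47, 7.28, 7.26 and 7.36 in the LPS arrays and 6.98, 7.22, 7.06, 7.08 and 7.27 in the LPS+RSV arrays. Each LPS array was above each control, by 0.25 ± 0.08 (SE; limma, unadjusted p = 0.00407, adjusted p = 0.351). DUSP26 averaged 6.02 ± 0.08 (SD, n = 5) in control and 5.86 ± 0.15 in LPS arrays, which overlapped. Of the 13 tested atypical phosphatases 6 were higher and 7 lower, with a median of -0.04.

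Kinases and feedback inhibitors were then set against each other. In LPS against control the median difference of the inhibitors exceeded that of the kinases by 0.14. Read per array, as the median deviation from the control mean, the kinases stayed within -0.04 to 0.03. The inhibitor medians ranged from -0.12 to 0.09 in control, -0.03 to 0.29 in LPS and -0.07 to 0.22 in LPS+RSV arrays. A median over 36 kinases varies less than one over 10 inhibitors, so these ranges do not show that single kinases were steadier. In LPS against control single kinases differed by -0.30 to 0.37 and single inhibitors by -0.05 to 0.35. The inhibitor medians were highest in LPS replicates 1 and 2 (0.29 and 0.21) and LPS+RSV replicate 1 (0.22), and the groups overlapped. In these 3 arrays the mean deviation of the enterocyte markers was 0.20, 0.29 and 0.37. In the 4 arrays with the lowest marker values, LPS+RSV replicate 2, LPS replicate 5 and control replicates 2 and 1, it was -0.40, -0.34, -0.29 and -0.25, and the inhibitor medians there were -0.07, 0.06, -0.02 and -0.12. The part of these markers in the result was not tested. Without LPS replicates 1 and 2 the gap between inhibitors and kinases was 0.02, with 7 of 10 inhibitors higher, a median of 0.04 and 0 of 10 at an unadjusted p under 0.05. Leaving out control replicate 2 alone gave 0.07 and LPS replicate 2 alone 0.08, and the mean of all rows per symbol gave 0.09. With LPS+RSV against LPS the gap was -0.05. It turned to 0.07 with the filter at the 60th percentile of each array, and to 0.02 without LPS replicates 1 and 2, where the inhibitor median was 0.02 and the kinase median 0.00. With LPS+RSV against control the gap was 0.09, which became 0.04 without control replicate 1 and 0.01 without LPS+RSV replicate 1. These comparisons share the LPS arrays, the control arrays or the LPS+RSV arrays, so their values are not independent.

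**Figure D2:**
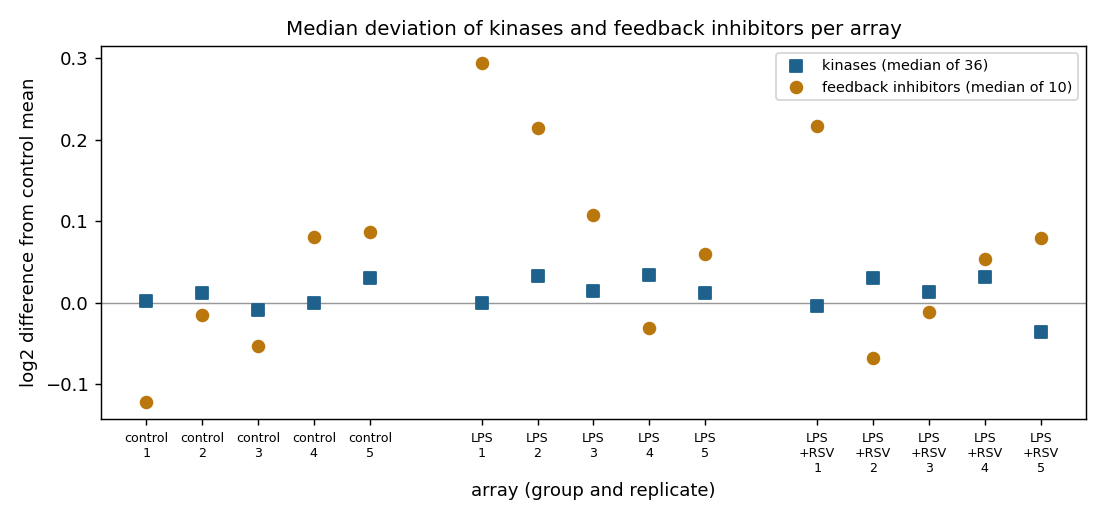
For each array (horizontal axis, by group and replicate), squares give the median log2 deviation from the control mean over 36 kinases and circles that over 10 feedback inhibitors. The kinase medians stay between -0.04 and 0.03, and the inhibitor medians are highest in LPS replicates 1 and 2 and LPS+RSV replicate 1.

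The second comparison asks what resveratrol changed in LPS-exposed cells. Here the differences of largest size were in kinases, with both tested MAP4K genes lower, and all 3 Sprouty genes were lower as well. Of the 36 kinases 19 were higher and 17 lower (median 0.00), and of the 10 inhibitors 5 were higher and 5 lower (median -0.05), beside a median of 0.01 over all genes. On the higher side 6 of 73 members had values at an unadjusted p under 0.05 (DUSP19, DUSP22, MAP3K11, MAPK11, MAPK3 and SPRYD4), 8.22% against 8.08% of all genes. On the lower side there were 11 of 73 (DUSP16, MAP3K2, MAP3K21, MAP3K7, MAP4K4, MAP4K5, MAPK1IP1L, MAPK6, MAPKAPK5, SPRY4 and SPRYD7), 15.1% against 10.5%. The arrays did not overlap for 1 member, MAP3K21, 1.37% against 2.8% of all genes. The shares on the higher side and without overlap are thus at or below the background. Without LPS+RSV replicate 1 the counts were 4 higher and 11 lower, 5.48% and 15.1% against 5.96% and 8.02% of all genes. Without LPS replicates 1 and 2 they were 2 higher and 4 lower, 2.74% and 5.48% against 5.78% and 7.38%.

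MAP4K4, given above, differed between LPS+RSV and LPS cells by -0.48 ± 0.16 (SE; limma, unadjusted p = 0.00759, adjusted p = 0.163), with all LPS+RSV arrays below every LPS array other than replicate 3, and by -0.44 without LPS+RSV replicate 1. MAP4K5, a germinal centre kinase that activates JNK, read 9.10, 9.003, 8.81, 8.68 and 8.64 in the control arrays, 8.87, 8.91, 8.88, 9.15 and 9.10 in the LPS arrays and 7.65, 8.88, 8.80, 8.56 and 8.44 in the LPS+RSV arrays. LPS+RSV replicate 1 was far below every other array, and replicate 2 lay within the LPS range. The difference was -0.51 ± 0.18 (SE; limma, unadjusted p = 0.0109, adjusted p = 0.170), and -0.31 without LPS+RSV replicate 1.

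Among the MAP3K genes 3 were lower at an unadjusted p under 0.05. MAP3K2 (MEKK2), which acts on MAP2K5, read 8.52, 8.54, 8.48, 8.54 and 8.59 in the control arrays, 8.61, 8.60, 8.48, 8.45 and 8.52 in the LPS arrays and 7.46, 8.31, 8.49, 8.38 and 8.15 in the LPS+RSV arrays. Its control and LPS arrays were almost level, and LPS+RSV replicate 1 was far below the other 4. The difference was -0.37 ± 0.14 (SE; limma, unadjusted p = 0.0171, adjusted p = 0.188), and -0.20 without that array. MAP3K7 (TAK1), the kinase on which LPS signalling converges, read 9.69, 9.68, 9.53, 9.56 and 9.47 in the control arrays, 9.61, 9.63, 9.42, 9.77 and 9.60 in the LPS arrays and 8.84, 9.53, 9.49, 9.37 and 9.29 in the LPS+RSV arrays. LPS+RSV replicate 1 was again the lowest array, and replicates 2 and 3 lay above the lowest LPS array. Its difference was -0.30 ± 0.11 (SE; limma, unadjusted p = 0.0142, adjusted p = 0.179), and -0.19 without replicate 1. MAP3K21, a mixed-lineage kinase named because its arrays did not overlap, read 7.52, 7.56, 7.37, 7.32 and 7.14 in the control arrays, 7.41, 7.58, 7.40, 7.42 and 7.46 in the LPS arrays and 6.92, 7.37, 7.37, 7.11 and 7.18 in the LPS+RSV arrays. Every LPS+RSV array was below every LPS array, with a difference of -0.26 ± 0.10 (SE; limma, unadjusted p = 0.0136, adjusted p = 0.177) and of -0.20 without LPS+RSV replicate 1. The controls spanned both groups.

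MAP3K11 (MLK3), another mixed-lineage kinase, was on the other side, with 6.88, 6.86, 7.27, 7.32 and 7.53 in the control arrays, 7.10, 7.12, 7.23, 6.95 and 7.19 in the LPS arrays and 7.81, 7.07, 7.32, 7.42 and 7.59 in the LPS+RSV arrays. Control replicates 3, 4 and 5 and 4 of 5 LPS+RSV arrays were above every LPS array. The difference was 0.32 ± 0.14 (SE; limma, unadjusted p = 0.0342, adjusted p = 0.239), and 0.23 without LPS+RSV replicate 1, where the unadjusted p was 0.105. MAP3K5 differed by 0.27 ± 0.15 (SE), and by 0.17 without LPS+RSV replicate 5.

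Among MAP kinases themselves, MAPK3 (ERK1) read 8.53, 8.498, 8.58, 8.76 and 8.92 in the control arrays, 8.65, 8.62, 8.75, 8.60 and 8.47 in the LPS arrays and 9.06, 8.60, 8.78, 8.82 and 8.92 in the LPS+RSV arrays. LPS+RSV arrays other than replicate 2 lay above all LPS arrays, and so did control replicates 4 and 5. It differed from LPS by 0.22 ± 0.10 (SE; limma, unadjusted p = 0.0382, adjusted p = 0.247), and by 0.16 without LPS+RSV replicate 1. MAPK11 (p38 beta) read 5.42, 5.64, 5.67, 5.57 and 5.54 in the control arrays, 5.58, 5.57, 5.76, 5.61 and 5.42 in the LPS arrays and 5.91, 5.70, 5.73, 5.66 and 5.99 in the LPS+RSV arrays. LPS+RSV replicates 1 and 5 exceeded all other arrays, replicates 2, 3 and 4 lay within the LPS range, and the difference was 0.21 ± 0.08 (SE; limma, unadjusted p = 0.0210, adjusted p = 0.198). MAPK6 (ERK3), an unstable kinase that pairs with MAPKAPK5, read 8.49, 8.66, 8.69, 8.76 and 8.82 in the control arrays, 8.87, 9.001, 8.69, 8.66 and 8.82 in the LPS arrays and 8.57, 8.54, 8.60, 8.49 and 8.69 in the LPS+RSV arrays. LPS+RSV arrays were the lower ones except replicate 5, which overlapped LPS replicates 3 and 4, and the difference was -0.23 ± 0.08 (SE; limma, unadjusted p = 0.00964, adjusted p = 0.168). It was -0.15 without LPS replicates 1 and 2, the highest arrays for MAPK6. MAPKAPK5 itself differed by -0.17 ± 0.08 (SE), or by -0.09 without LPS+RSV replicate 1. MAPK13 differed by 0.20 ± 0.13 and MAPK9 by -0.12 ± 0.10, and these became 0.10 and -0.04 without LPS+RSV replicate 1. Without LPS replicate 5 the MAPK13 difference was 0.13, and without LPS replicate 4 that of MAPK9 was -0.08. Without LPS replicates 1 and 2 they were 0.39 for MAPK13 and -0.16 for MAPK9. MAPKAPK3 was higher by 0.15 ± 0.11, and by 0.03 without LPS+RSV replicate 1, which read 7.9997 against 7.35 to 7.48 in the other 4.

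**Figure D3:**
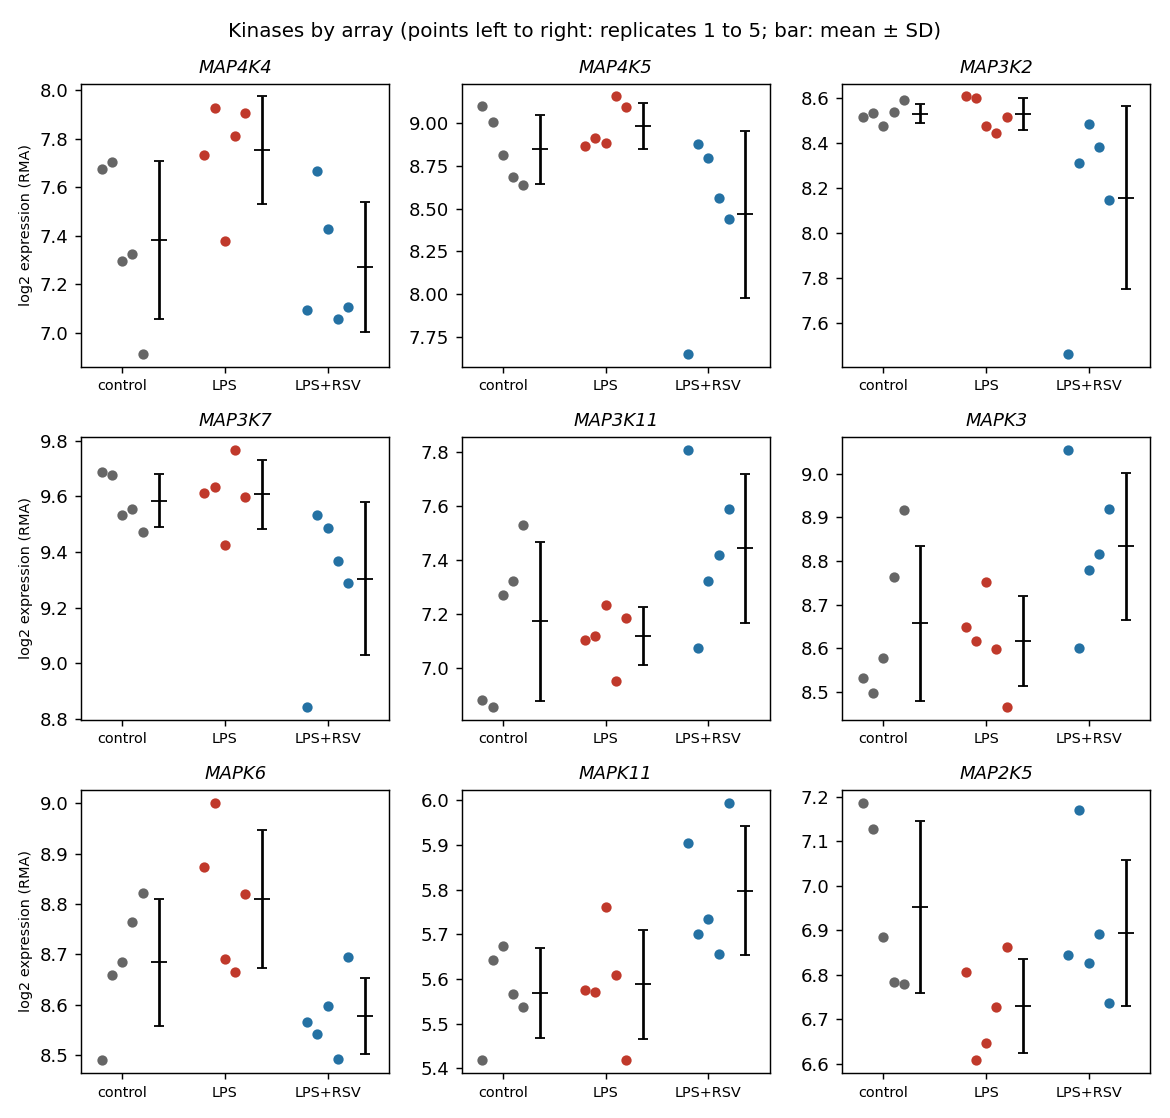
Log2 expression (vertical axes, RMA) of 9 kinases in each control, LPS and LPS+RSV array, with points for replicates 1 to 5 from left to right and the mean ± SD beside them. LPS+RSV replicate 1 is the lowest array for MAP4K5, MAP3K2 and MAP3K7 and the highest for MAP3K11 and MAPK3.

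The 3 tested Sprouty genes had a median difference of -0.20 between LPS+RSV and LPS. SPRY4 differed by -0.28 ± 0.11 (SE; limma, unadjusted p = 0.0177, adjusted p = 0.189), with 4 of 5 LPS+RSV arrays below every LPS array, and by -0.31 without LPS+RSV replicate 1 and -0.24 without LPS replicates 1 and 2. SPRY2 differed by -0.20 ± 0.14 (SE; limma, unadjusted p = 0.170, adjusted p = 0.454), which became -0.11 without LPS replicate 1 and 0.01 without LPS replicates 1 and 2. Of the 7 tested phosphatases 5 were higher and 2 lower, with a median of 0.07. Without LPS+RSV replicate 1 these were 2 higher and 5 lower, with a median of -0.02. The 2 lower ones were DUSP5, at -0.27 ± 0.18 (SE; limma, unadjusted p = 0.146, adjusted p = 0.422), and DUSP16, at -0.25 ± 0.09 (SE; limma, unadjusted p = 0.0130, adjusted p = 0.176). Their values were -0.12 without LPS replicate 2 and -0.17 without LPS replicate 1, in that order. Without both these LPS arrays they were 0.03 and -0.10, and without LPS+RSV replicate 1 they were -0.40 and -0.26. Without that LPS+RSV array 8 of the 10 inhibitors were lower, with a median of -0.05.

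Among the other members, DUSP19 exceeded its LPS level in LPS+RSV cells by 0.25 ± 0.11 (SE; limma, unadjusted p = 0.0391, adjusted p = 0.249), and by 0.35 without LPS+RSV replicate 1. DUSP22 was higher by 0.23 ± 0.07 (SE; limma, unadjusted p = 0.00358, adjusted p = 0.135), and SPRYD7 differed by -0.22 ± 0.08 (SE; limma, unadjusted p = 0.0105, adjusted p = 0.169). The same LPS arrays enter this comparison and that of LPS against control. MAPK1IP1L, grouped here with the binding proteins, differed by -0.30 ± 0.10 (SE; limma, unadjusted p = 0.0114, adjusted p = 0.170), and by -0.20 without LPS+RSV replicate 1, which read 8.04 against 8.49 to 8.65. The other row of MAPK1IP1L gave -0.21. SPRYD4, named after its values were seen, averaged 7.24 ± 0.13 (SD, n = 5) in LPS and 7.39 ± 0.10 in LPS+RSV arrays. Its difference was 0.16, and 0.07 without LPS replicates 1 and 2.

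**Figure D4:**
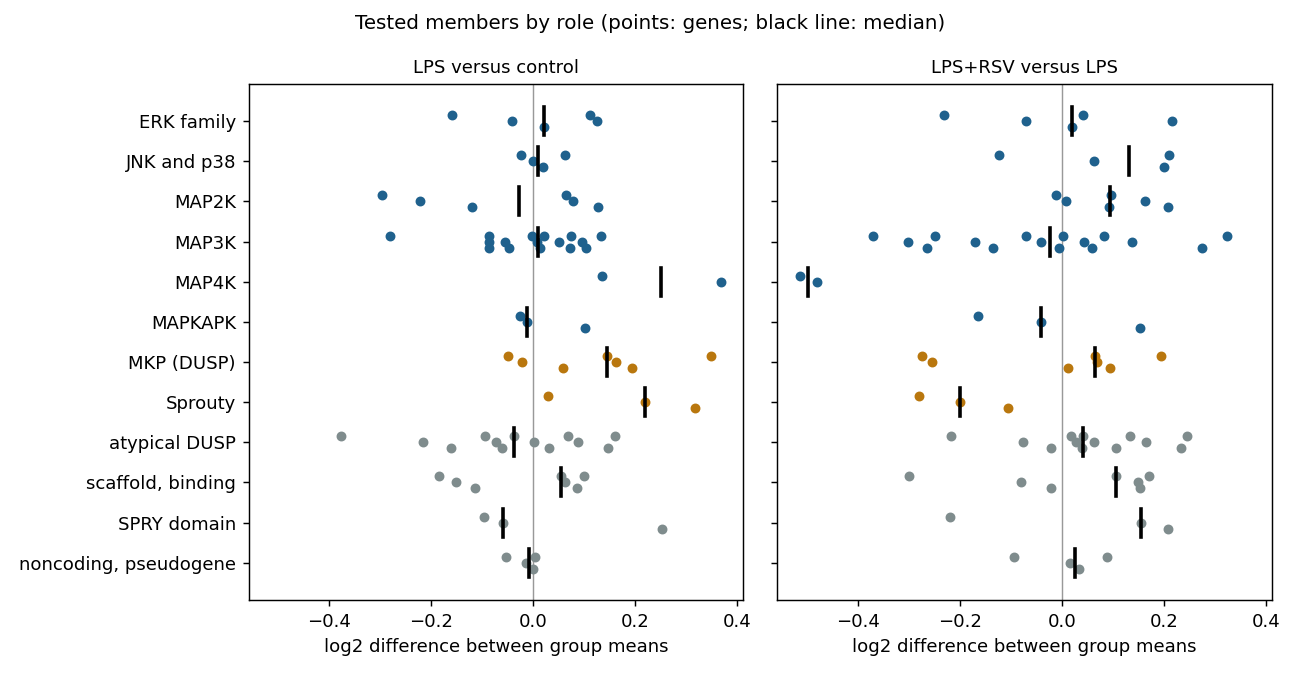
Log2 difference between group means (horizontal axes) for LPS against control and LPS+RSV against LPS, with 1 point for each of the 73 tested members arranged by role and a black line at each role's median. The Sprouty median is 0.22 in the first panel and -0.20 in the second, the 2 MAP4K genes lie at -0.51 and -0.48 in the second, and the MAP3K genes scatter around 0 in both.

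The third comparison, of LPS+RSV with untreated cells, shares arrays with both others. Of 36 kinases 18 were higher and 18 lower (median 0.00), and of 10 inhibitors 7 were higher and 3 lower (median 0.10), beside a median of 0.02 over all genes. The members higher than control were 4 of 73 at an unadjusted p under 0.05 (DUSP2, MAP2K3, MAPK11 and MAPK8IP2), 5.48% against 4.09% of all genes. On the lower side there were 4 (MAP3K2, MAP3K7, MAP3K7CL and MAP4K5), 5.48% against 6.4%. No member's arrays were free of overlap, beside 1.72% of all genes. Without LPS+RSV replicate 1 the inhibitors' median was 0.02, with 6 of 10 higher, and 2 members were higher and 2 lower at an unadjusted p under 0.05 (2.74% each, against 1.79% and 3.54% of all genes). Leaving out control replicate 1 or 2 left 5 such members in both directions together, 6.85% against 6.01% and 6.38% of all genes, and leaving out LPS+RSV replicate 2 gave 16, 21.9% against 16.9% (10.96% against 10.5% with every array).

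DUSP2 was higher in LPS+RSV than in control cells by 0.16 ± 0.06 (SE; limma, unadjusted p = 0.0271, adjusted p = 0.464). MAPK11 was higher by 0.23 ± 0.08 (SE; limma, unadjusted p = 0.0129, adjusted p = 0.464). MAP2K3, an activator of p38, read 7.10, 7.04, 7.01, 7.18 and 7.19 in the control arrays, 7.28, 7.25, 7.29, 7.17 and 7.15 in the LPS arrays and 7.63, 7.21, 7.17, 7.29 and 7.31 in the LPS+RSV arrays. LPS+RSV replicate 1 was the highest array, and the LPS+RSV arrays other than replicate 3 exceeded every control. Its difference was 0.22 ± 0.08 (SE; limma, unadjusted p = 0.0152, adjusted p = 0.464), and 0.14 without that array. The JNK scaffolds MAPK8IP2 and MAPK8IP1 were higher by 0.22 ± 0.10 and 0.23 ± 0.12 (SE), or by 0.16 and 0.11 without LPS+RSV replicate 1. MAP3K2, MAP3K7 and MAP4K5 differed by -0.37, -0.28 and -0.38, which became -0.20, -0.17 and -0.18 without it. MAP3K7CL, a short relative of TAK1 named after its values were seen, averaged 6.99 ± 0.22 (SD, n = 5) in control and 6.79 ± 0.13 in LPS+RSV arrays. Its difference was -0.13 without control replicate 2. MAP2K6 differed from control by -0.29 ± 0.15, and by -0.19 without control replicate 2 or LPS+RSV replicate 1. DUSP8 differed by 0.23 ± 0.22 (SE). It was 0.08 without control replicate 2, 0.11 without LPS+RSV replicate 1 and 0.13 without LPS+RSV replicate 5, and 0.37 without LPS+RSV replicate 2.

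Genes around the cascade were taken from lists set down with earlier results of these data known. Of 20 tested targets of MAP kinase signalling, 18 were higher in LPS than in control cells (median 0.16) and 1 passed the test, ETV4, an ETS factor transcribed downstream of ERK, which rose by 0.89 ± 0.14 (SE; limma, adjusted p = 0.0380). In LPS+RSV against LPS 14 of the 20 were lower (median -0.03), and ETV4 fell by 0.89 ± 0.14 (limma, adjusted p = 0.0307). IER3, an early response gene, differed by 0.59 ± 0.11 and -0.49 ± 0.11 in the same comparisons (limma, adjusted p = 0.0996 and 0.0712). The cell cycle regulator CCND1 differed by 0.43 ± 0.09 and -0.27 ± 0.09. At an unadjusted p under 0.05 (limma) 6 of the 20 were higher in the first comparison, against 4.62% of all genes. In the second 6 of the 20 were lower, against 10.5%.

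Of 12 tested growth factor ligands and receptors, 8 were higher with LPS (median 0.04). In LPS+RSV against LPS, 7 had lower means (median -0.04). Of these 12, 0 were called by limma, and 2 and 5 had an unadjusted p under 0.05, beside 7.88% and 18.6% of all genes. The EGF receptor ligands EREG and HBEGF differed from control by 0.81 ± 0.24 and 0.30 ± 0.12 (SE), and LPS+RSV differed from LPS by -0.97 ± 0.24 and -0.39 ± 0.12. The receptor ERBB3 differed by -0.24 ± 0.12 and 0.31 ± 0.12. Among 10 tested genes of the step from receptor to RAF, 9 were higher with LPS (median 0.07). In LPS+RSV against LPS cells 7 of 10 had lower means (median -0.14). By limma 0 were called, with 0 and 3 at an unadjusted p under 0.05, beside 7.88% and 18.6% of all genes. The 3 were the adaptor GAB1 (-0.30 ± 0.08), the RAS inactivator NF1 (-0.26 ± 0.09) and the RAF scaffold KSR1 (-0.33 ± 0.10).

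The partners of TAK1 went different ways between LPS+RSV and LPS cells. TAB3 differed by -0.38 ± 0.11 (SE), TAB2 by -0.12 ± 0.06 and TAB1 by 0.23 ± 0.09. Of the 12 genes of this stress list 4 could be tested, with 0 called by limma. At an unadjusted p under 0.05 (limma) there were 0 for LPS against control and 3 for LPS+RSV against LPS, beside 7.88% and 18.6% of all genes. The 3 were TAB3, TAB1 and PAK2, which is named after its values were seen and differed by -0.17 ± 0.08. Of 6 tested inhibitors outside the phosphatase and Sprouty families, 6 were higher with LPS (median 0.11) and 4 lower in LPS+RSV than in LPS cells (median -0.23). By limma 0 were called, with 1 and 2 at an unadjusted p under 0.05, beside 7.88% and 18.6% of all genes. PEA15, which keeps ERK in the cytoplasm, differed by 0.41 ± 0.09 and -0.30 ± 0.09. ERRFI1, an inhibitor of EGF receptors, differed by 0.32 ± 0.19 and -0.48 ± 0.19, and RASAL2, a RAS inactivator, by 0.02 ± 0.18 and -0.36 ± 0.18.

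The remaining members are described by their ranges. The 8 genes below the filter, whose level was 5.03 to 5.09 in different arrays, were DUSP4, DUSP10, DUSP21, MAPK10 (JNK3, a kinase of neurons), MAP3K19, MAP4K1, MAP2K4P1 and MAP3K20-AS1. Their mean differences, not tested, ranged from -0.08 (MAP4K1) to 0.21 (DUSP4) for LPS against control. For LPS+RSV against LPS they ranged from -0.19 (DUSP4) to 0.27 (MAP4K1). The 16 tested MAP3K genes ranged from -0.28 to 0.13 in LPS against control and from -0.37 to 0.32 in LPS+RSV against LPS. The 7 tested scaffold and binding proteins ranged from -0.18 to 0.10 and from -0.30 to 0.17, and the 4 tested noncoding or pseudogene transcripts from -0.05 to 0.00 and from -0.09 to 0.09. More than 1 row was found for 7 symbols. For DUSP5 and MAPK8IP1 the other row had the opposite sign with LPS, and so did the other row of SPRY3, while 3 rows of the pseudogene MAPK8IP1P2 held the same values and cannot be told apart. The other row of MAPK1IP1L averaged 7.42 and gave 0.43 for LPS against control, beside 0.10 in the row used. For LPS+RSV against control it gave 0.22, where the row used gave -0.20.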

How the data were processed

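The RNA of 15 Caco-2 samples (5 control, 5 LPS, 5 LPS+RSV) was measured on Affymetrix whole-transcript arrays. The deposited values were log2 expression values made with RMA, per the submitters' processing notes; its version and the genome build of the array were not given in the sources used here. All 15 columns were matched to samples by the labels and 0 columns were left over. Symbols are those of the platform annotation, some perhaps outdated; 16098 of 53617 rows had 1 symbol and 37519 were unnamed here. All 81 members matched a RefSeq symbol through their Entrez identifier.

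Each symbol was represented by the row with the highest mean over all arrays. A gene was tested if it exceeded an array's 40th percentile, taken over all rows, in 5 or more of the 15 arrays, which 11804 genes did. A model with 3 group means was fitted by lmFit and eBayes of limma 3.58.1 (R 4.3.3), and p-values were adjusted by Benjamini-Hochberg over all genes tested, with a threshold of 0.05. Lists were described by counts and medians, without a test. The script was tested on simulated data. Medians of the 15 arrays ranged from 5.49 to 5.54; precision is limited by how many arrays there are.

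Named with values were members passing the threshold, the 2 of largest change per role and comparison, 20 genes set down whatever their values, and up to 3 genes per pathway list of lowest p; others named for unadjusted p are said to be chosen after their values were seen. The members and lists were chosen with earlier results of these data known. Alternatives were other filters, the mean over a symbol's rows, other normalizations, other moderation, weights per array, fitting 2 groups alone, blocking on the replicate number, and leaving out single arrays; leaving out LPS replicates 1 and 2 together was added after the data were seen. The DUSP gene left out by the rule is not reported here.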

Additional observations from a re-analysis of the deposited data

Results flagged for a closer look

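Of 114 groups of 5 arrays examined, 9 held 1 array whose gap to its nearest neighbour was large against the range of its group (Dixon's criterion, 0.71); chance gives about 1 in 20. LPS+RSV replicate 1 was the array in 3 of them: it read 8.04 for MAPK1IP1L (others 8.49 to 8.65), 7.9997 for MAPKAPK3 (others 7.35 to 7.48) and 5.32 for SPRY3 (others 5.54 to 5.61). LPS+RSV replicate 4 read 8.64 for DUSP16 (others 8.78 to 8.81). Among controls, replicate 5 read 4.47 for DUSP10 (others 4.79 to 4.90), replicate 2 read 7.73 for DUSP19 (others 7.37 to 7.46), replicate 3 read 6.95 for MAP3K9 (others 7.17 to 7.22) and replicate 1 read 5.44 for MAPK8IP1 (others 5.68 to 5.77). LPS replicate 5 read 7.07 for MAP3K9 (others 7.28 to 7.36). All values are on the log2 scale.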

How the results depend on the processing

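Under each alternative run, including each array left out in turn, 0 members were called in each of the 3 comparisons. With the replicate number as a block, 0 members were called as well, the lowest adjusted p of a member (limma) was 0.329, 0.146 and 0.547, and inhibitors minus kinases was 0.14, -0.05 and 0.09, values that the balanced design fixes under a block. The numbers were not taken to pair the samples, since deviations of same-numbered arrays correlated from -0.54 to 0.71, 4 of 15 pairs were over 0.1, and 5 of 15 arrays correlated best with their own number. Inhibitors minus kinases became 0.072 for LPS+RSV against LPS with the 60th percentile filter, and 0.021 for LPS against control without LPS replicates 1 and 2. With the mean of all rows per symbol it was 0.088 for LPS against control, where DUSP5 was 0.065, and -0.0025 for LPS+RSV against LPS, where DUSP5 was -0.0084. For LPS+RSV against control it was 0.030 with array weights and 0.15 with the 60th percentile filter. Leaving out 1 array at a time gave 0.071 to 0.19 for LPS against control, -0.091 to -0.040 for LPS+RSV against LPS and 0.013 to 0.14 for LPS+RSV against control. Of single genes, 12 values changed sign under settings other than leaving out 1 array. For LPS against control they were MAPK9 with array weights (0.028) and, without LPS replicates 1 and 2, DUSP1 (-0.077), MAPK13 (-0.12) and MAPK9 (0.017). For LPS+RSV against LPS they were MAP2K1 after quantile normalization (0.024) and, without LPS replicates 1 and 2, DUSP5 (0.029), MAP2K1 (0.033), MAPK7 (-0.037), MAPKAPK2 (0.014) and SPRY2 (0.0088). For LPS+RSV against control they were MAP3K5 after quantile normalization (0.028) and DUSP5 with array weights (-0.052). Leaving out 1 array changed the sign of 25 values. The ranges of the genes concerned were, for LPS against control, DUSP1 -0.044 to 0.18, MAP3K7 -0.018 to 0.068, MAPK13 -0.027 to 0.13, MAPK3 -0.081 to 0.024, MAPK7 -0.013 to 0.063, MAPK9 -0.067 to 0.046 and MAPKAPK2 -0.058 to 0.031. For LPS+RSV against LPS they were DUSP1 -0.018 to 0.23, MAP2K1 -0.057 to 0.035, MAP2K2 -0.0071 to 0.15 and MAPK7 -0.023 to 0.053, and for LPS+RSV against control DUSP5 -0.051 to 0.15, MAP3K5 -0.11 to 0.098 and SPRY4 -0.14 to 0.017. The cause was not tested. The 8 untested members lay below the filter in too many arrays to be fitted with the rest.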
